A study of Mus musculus with 10 samples.

Results

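Oxidative phosphorylation genes were followed in luminal epithelial cells sorted from the mouse prostate, before and after castration and after testosterone was given back. The genes were chosen by name alone: every gene with a single listed symbol that begins with Nduf, Uqcr, Cox4i, Cox5, Cox6, Cox7, Cox8 or Atp5, together with the Sdha, Sdhb, Sdhc and Sdhd genes. This gave 93 of the 30142 genes tested, 42 for complex I, 4 for complex II, 8 for complex III, 20 for complex IV and 17 for complex V, and 2 pseudogenes. Of the 42 complex I genes, 8 encode assembly factors that are not part of the finished enzyme. Subunits listed only together with a second symbol, such as Ndufa11, or with no single symbol, were not analysed here.

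RNA of each sample was hybridised to 1 Affymetrix ClariomD array, and levels are log2 RMA values. The 10 arrays form 3 groups: intact mice (n = 3), mice castrated surgically when 12 weeks old and sampled 6 weeks later (castrated, n = 3), and mice castrated likewise and then given testosterone for 4 weeks from a silastic implant (regenerated, n = 4). All mice carried Hoxb13-rtTA|TetO-H2BGFP, a doxycycline-inducible green fluorescent histone, and drank doxycycline at 2 mg/ml for 1 week. The sort kept fluorescent, CD24-positive cells of intermediate CD49f and removed those with CD45, F4/80 or CD11b. The age of the intact mice is not given in the labels, and no group stayed castrated for as long as the regenerated mice, so testosterone and elapsed time cannot be told apart. Whether each sample is 1 mouse or pooled mice is not in the labels, which name them biological replicates; p-values reflect only how these samples vary. The reporter depends on the Hoxb13 promoter, and Hoxb13 itself fell by 2.65 after castration (log2, adjusted p = 0.00416 by limma with Benjamini-Hochberg adjustment over all genes tested). Whether that fall changed which cells were sorted was not tested. Sample titles carry the tag PC in the castrated and regenerated groups only.

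Oxidative phosphorylation takes place in the inner mitochondrial membrane. Complexes I and II pass electrons from NADH and succinate to ubiquinone, complex III passes them to cytochrome c, and complex IV to oxygen. The proton gradient built by complexes I, III and IV drives complex V, the ATP synthase. Prostate luminal cells of rodents and men are known for secreting citrate, which is then not oxidised in the mitochondrion.

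The luminal keratins Krt8 and Krt18 lay between 14.73 and 18.65 on all arrays, and the leukocyte gene Ptprc between 3.55 and 3.76. For comparison, 6.40 was the highest value among 23 background control rows (median 3.03) and is taken here as background. Of the 10 luminal markers measured none was at or under background in all groups, while 6 of 8 basal, 8 of 10 leukocyte, 9 of 10 stromal, 8 of 8 striated muscle, 5 of 5 endothelial, 3 of 3 neuroendocrine, 5 of 5 germ cell and 4 of 4 brown adipocyte markers were. The summed log2 values of the 10 luminal markers ran from 158.85 to 159.5 in intact, 129.6 to 133.97 in castrated and 162.18 to 165.1 in regenerated arrays. The fall after castration lay in the secretory genes Spink1 (-11.98), Msmb (-9.25) and Tgm4 (-8.68) and in Hoxb13, while Krt8 (1.37), Krt18 (1.41), Krt19 (1.04) and Cd24a (1.72) were called higher; the median difference of the 10 was 0.04. Of the leukocyte markers, Cd68 lay above background on all arrays and was not called. Itgam, the gene of CD11b, was called higher after castration though under background (0.38, limma adjusted p = 0.0181). The T-cell gene Cd3e was called lower after testosterone (-4.04, limma adjusted p = 0.0253). Its rise of 3.39 after castration missed the threshold (limma adjusted p = 0.0507). Only its castrated arrays all lay above background. It ran from 5.4 to 8.18 in intact, 8.26 to 11.76 in castrated and 5.73 to 7.38 in regenerated arrays. In the same groups the sum over the 10 leukocyte markers ran from 46.09 to 48.99, from 49.05 to 55.16 and from 45.23 to 49.04. Over the 8 basal markers it ran from 45.57 to 46.87, from 49.59 to 52.3 and from 47.62 to 51.86. All 8 basal markers were higher after castration, and 2 were called (25%, against 8.01% of all genes). These were Krt17 (1.31, limma adjusted p = 0.000875) and Krt14 (0.52, limma adjusted p = 0.046), both under background. Krt17 was called lower after testosterone (-1.15, limma adjusted p = 0.0016). Krt15 (1.19) and Itga6 (1.07), both above background, were not called after castration. The stromal marker above background was Dcn, at 11.4 to 12.77 in intact, 6.63 to 9.09 in castrated and 10.94 to 11.89 in regenerated arrays. It was called lower after castration (-4.7, limma adjusted p = 0.00143) and higher after testosterone (3.83, limma adjusted p = 0.00394). Over the 10 stromal markers the sum ran from 47.17 to 49.31, from 42.84 to 46.22 and from 46.06 to 47.93. Of these markers 5 were higher and 5 lower after castration. The part of other cells in the results was not tested.

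One array stood apart. On the first principal component of all genes, which held 44.3% of the variance, regenerated replicate 4 had a score of 3.03, against -31 to -23.2 for the other regenerated arrays, -47.6 to -40.5 for intact and 64.1 to 75.5 for castrated arrays. Its oxidative phosphorylation genes were low: their median deviation from the mean of the 10 arrays was -0.48, against -0.27 for the genes whose mean lay above background and -0.01 for all genes. It was the lowest of the 10 arrays for 64 of the 93 genes (68.8%), against 30.8% of the 9251 genes above background. The share was 34 of 42 in complex I, 7 of 8 in complex III, 13 of 17 in complex V, 9 of 20 in complex IV and 0 of 4 in complex II. The 5 subunits encoded in the mitochondrial genome that could be followed had a median deviation of 0.37 on this array. That value did not set it apart, as the other arrays ran from -0.41 (castrated replicate 1) to 0.69 (castrated replicate 3). Where leaving this array out changed a call of an oxidative phosphorylation gene, the value without it is given too. The same was done for many counts and directions, but not for all.

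**Figure D1:**
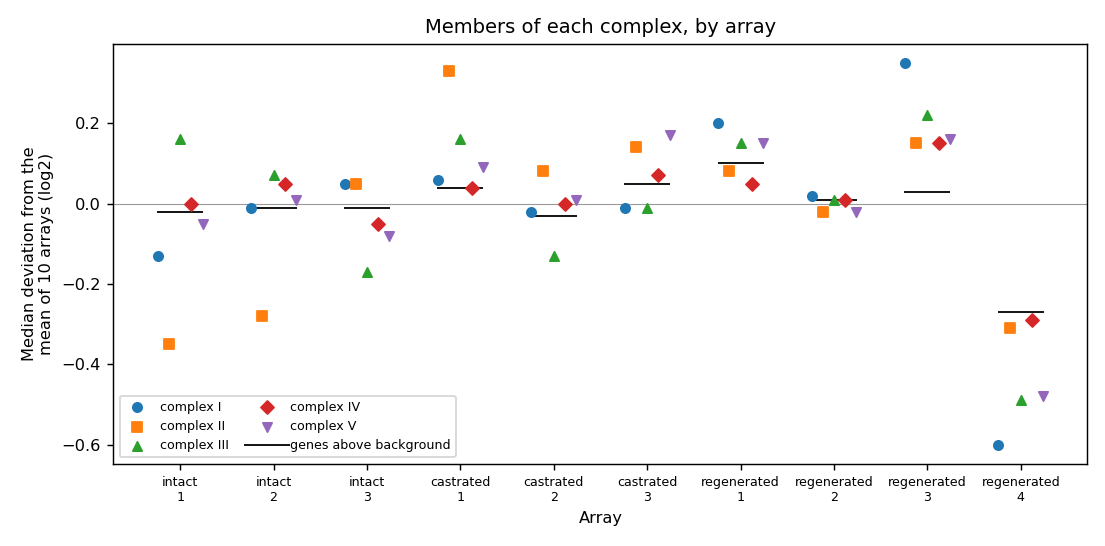
Median deviation of the genes of each complex from their mean over the 10 arrays (vertical axis, log2 RMA), by array; the black bars mark the 9251 genes with a mean above background. On regenerated replicate 4 the medians of all 5 complexes lay between -0.6 and -0.29, while the bar was at -0.27.

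Most oxidative phosphorylation genes did not pass the test in any comparison. A gene is called here where its adjusted p is under 0.05 (limma over all 10 arrays, Benjamini-Hochberg adjustment over 30142 genes). Between castrated and intact cells 6 of the 93 genes were called, or 6.45%, while 8.01% of all genes were called. Of the 6, 4 were higher and 2 lower after castration, against 4.82% and 3.19% of all genes. Among genes with a mean above background the shares were 4 of 83 (4.82%) and 17.2%. The median difference was 0.11 for the 93 genes and 0.04 for all genes, and 76 of the 93 differed by less than 0.5. Values are per array, so fewer cells of a type and less RNA per cell cannot be told apart, and RMA reduces any change common to all transcripts.

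After testosterone, 5 of the 93 genes (5.38%) differed from the castrated cells, where 4.98% of all genes were called. Of the 5, 1 was higher and 4 were lower, against 1.97% and 3.01% of all genes. Among genes above background the shares were 4 of 83 (4.82%) and 10.9%. The median difference of the 93 was -0.03, and 85 of the 93 differed by less than 0.5 (84 without regenerated replicate 4). Between regenerated and intact cells limma called 0 of the 93 genes, 2 had an unadjusted p under 0.05, and 0.0365% of all genes were called (0.0332% higher, 0.00332% lower, and 0.0865% of those above background). All 93 differed there by less than 0.5, but the 95% interval reached beyond 1 in either direction for 7 of them. Without regenerated replicate 4, 88 of the 93 differed by less than 0.5, and the interval reached beyond 1 for 4. The castrated arrays enter both of the first comparisons, so opposite signs in them are not independent of each other. In all, 7 genes were called in at least 1 comparison and 86 in none.

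Castrated and intact arrays did not overlap for 38 of the 93 genes (40.9%), 24 with castrated arrays higher and 14 lower, against 28.9% of all genes; among genes above background the shares were 33 of 83 (39.8%) and 46.6%. Regenerated and castrated arrays did not overlap for 11 of the 93 (11.8%), against 16% of all genes, and above background for 9 of 83 (10.8%), against 27%. Regenerated and intact arrays did not overlap for 6 (6.45%), against 9.65% of all genes, and above background for 4 of 83 (4.82%), against 14.6%. Without regenerated replicate 4 the counts in the last 2 comparisons were 26 of 93 (28%) and 21 of 93 (22.6%), against 25% and 14.9% of all genes; above background they were 24 of 83 (28.9%) and 19 of 83 (22.9%), against 40.3% and 21.9%.

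Leaving out regenerated replicate 4 changed several calls and many signs. Without it 9 of the 93 genes (9.68%) were called between castrated and intact, against 10.9% of all genes, as Atp5a1, Ndufaf7 and Ndufb4b were added to the 6. The array is in neither of these groups, so the differences stayed the same and only the shared estimate of the spread changed. For Ndufb4b the SE went from 0.35 to 0.17. Between regenerated and castrated 5 were called (5.38%, against 7.06% of all genes): Atp5g2 was lost and Ndufv3 gained. Between regenerated and intact 0 were called by limma, against 0.0829% of all genes. Above background the shares were 7 of 83 (8.43%) against 24%, and 4 of 83 (4.82%) against 15.6%. The median difference between regenerated and castrated cells moved from -0.03 to 0.05, and the number of genes higher after testosterone from 32 to 55 of 93. Against intact cells, 43 of 93 genes were higher in regenerated cells with the array and 75 without it, at a median of -0.01 and 0.15. Of all 30142 genes, 13876 were higher after testosterone with the array and 13553 without it, at a median of -0.01 and -0.02. Against intact cells 16448 and 16490 of all genes were higher, at a median of 0.01 and 0.02. The direction of the oxidative phosphorylation genes as a group after testosterone thus rested on 1 array.

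**Figure D2:**
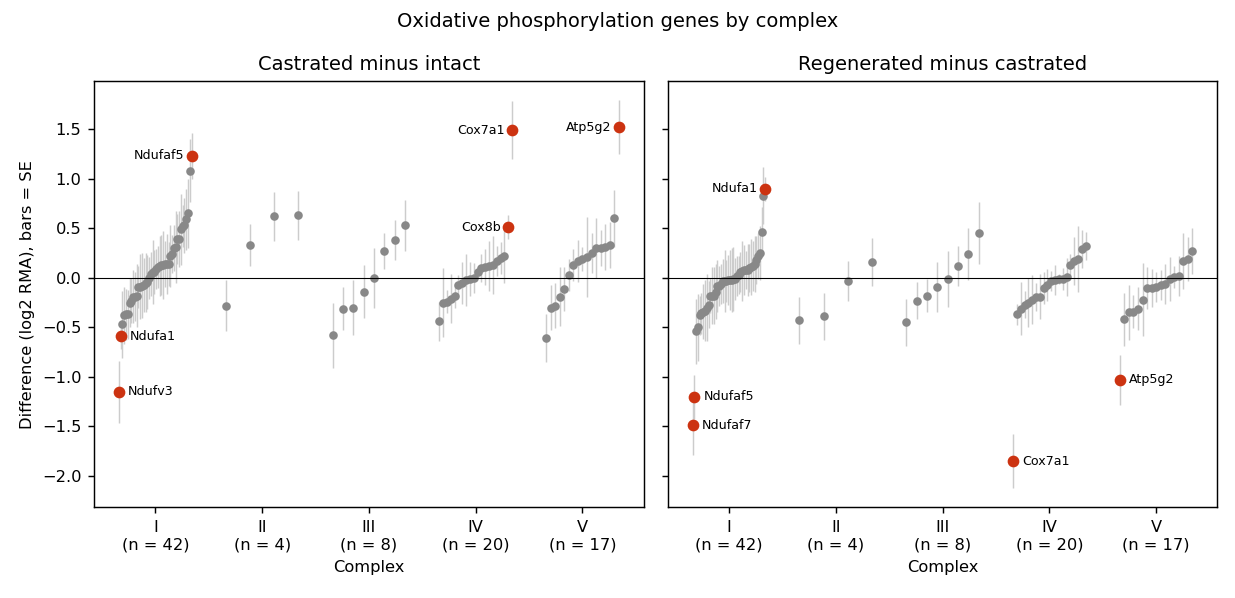
Difference of each gene (vertical axis, log2 RMA) by complex, castrated minus intact on the left and regenerated minus castrated on the right; bars are standard errors, genes are sorted within a complex, and red points are genes with an adjusted p under 0.05. The 2 pseudogenes are not shown. In the left panel most genes of complexes I, III, IV and V differ by less than 0.5, while 2 of the 4 of complex II, Sdhc at 0.62 and Sdhd at 0.63, lie outside that band.

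The 4 genes called both after castration and after testosterone were Cox7a1, Atp5g2, Ndufaf5 and Ndufa1. Their promoters are shown because these genes passed the threshold in both steps with all arrays in the fit. Without regenerated replicate 4, Ndufaf7 and Ndufv3 also passed in both steps, while Atp5g2 passed only after castration. Each sequence covers 250 bases before to 50 bases after the start of the gene (RefSeq, GRCm38.p6, 5′ to 3′ along the gene). Capitals mark matches to 4 motifs searched on both strands: GCATGCG (core of the NRF1 motif), CCGGAAG (ETS factors, among them GABP alpha), ATGGCGG (core of the YY1 motif) and AGAACA (core of the androgen response element).
Cox7a1, chr7:30183921-30184220, plus strand: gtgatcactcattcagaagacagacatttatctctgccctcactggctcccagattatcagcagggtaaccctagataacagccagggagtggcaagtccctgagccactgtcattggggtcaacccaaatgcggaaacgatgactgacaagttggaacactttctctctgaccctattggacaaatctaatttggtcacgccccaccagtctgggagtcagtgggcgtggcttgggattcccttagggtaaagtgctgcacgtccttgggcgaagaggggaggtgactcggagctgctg
Atp5g2, chr15:102670998-102671297, minus strand: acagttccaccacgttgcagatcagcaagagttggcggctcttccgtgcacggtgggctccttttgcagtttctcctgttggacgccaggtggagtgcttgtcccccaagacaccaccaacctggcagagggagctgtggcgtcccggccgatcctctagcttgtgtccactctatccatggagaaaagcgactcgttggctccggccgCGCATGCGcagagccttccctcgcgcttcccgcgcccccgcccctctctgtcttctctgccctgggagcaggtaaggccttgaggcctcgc
Ndufaf5, chr2:140170396-140170695, plus strand: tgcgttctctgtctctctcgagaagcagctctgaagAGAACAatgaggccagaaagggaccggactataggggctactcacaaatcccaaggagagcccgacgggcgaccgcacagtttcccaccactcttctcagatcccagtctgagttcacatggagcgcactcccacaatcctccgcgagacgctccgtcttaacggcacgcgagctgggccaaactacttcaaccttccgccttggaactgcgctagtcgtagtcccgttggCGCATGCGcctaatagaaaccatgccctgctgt
Ndufa1, chrX:37191189-37191488, minus strand: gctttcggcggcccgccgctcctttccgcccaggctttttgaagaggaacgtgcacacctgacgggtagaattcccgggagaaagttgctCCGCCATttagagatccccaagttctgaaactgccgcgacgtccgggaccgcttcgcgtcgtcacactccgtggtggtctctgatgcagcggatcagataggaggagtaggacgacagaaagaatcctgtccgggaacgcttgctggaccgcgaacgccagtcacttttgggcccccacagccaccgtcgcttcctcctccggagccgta

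The Atp5g2 promoter held GCATGCG on both strands, 41 and 40 bases before the start. The Ndufaf5 promoter held it on both strands 17 and 18 bases after the start, and AGAACA 214 bases before it. Ndufa1 had ATGGCGG on the opposite strand 160 bases before the start, and the Cox7a1 window held none of the 4 strings. RefSeq gave 79 promoters for 74 of the 93 genes. GCATGCG was in 15.2% of these and in 3.6% of all 32851 promoters of the same length, CCGGAAG in 22.8% and 8.9%, ATGGCGG in 17.7% and 4.1%, and AGAACA in 12.7% and 19.0%. GCATGCG overlaps its own reverse complement, and no string contains another. A match is a string of letters and not a site shown to be bound.

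Complex I, the NADH dehydrogenase, is built from core subunits that carry the electrons and accessory subunits around them. Among its 42 genes, Ndufaf5 rose and Ndufa1 and Ndufv3 fell after castration, and the median difference was 0.08. After testosterone Ndufa1 rose and Ndufaf5 and Ndufaf7 fell. Not one of the 6 core subunits measured (Ndufs1, Ndufs3, Ndufs7, Ndufs8, Ndufv1 and Ndufv2) was called in a comparison, and their differences after castration ran from -0.37 for Ndufv1 to 0.39 for Ndufs7.

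Ndufa1, a small membrane subunit needed for complex I to assemble, was at 17.5, 17.62 and 17.59 in intact cells and at 17.05, 17.01 and 16.88 in castrated cells. In regenerated cells it was at 18, 17.85, 17.99 and 17.66. All castrated arrays were below all others, and the regenerated arrays were above the intact ones. It fell by 0.59 after castration, or 1.51-fold (SE 0.13, limma adjusted p = 0.0214), and rose by 0.90 after testosterone, or 1.86-fold (SE 0.12, limma adjusted p = 0.00253). The difference of 0.30 between regenerated and intact cells did not pass (limma adjusted p = 0.438). The call after castration was lost without any 1 of the intact arrays or of castrated replicates 2 and 3 (limma adjusted p 0.0611 to 0.1), and the call after testosterone was kept without each of the 10 arrays, at 0.97 without regenerated replicate 4 (limma adjusted p = 0.000475).

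Ndufv3, an accessory subunit of the module that oxidises NADH, was at 13.47, 13.38 and 12.96 in intact, 12.07, 12.1 and 12.19 in castrated and 13.41, 13.01, 13.21 and 12.19 in regenerated cells. The castrated arrays were below every intact array, and regenerated replicate 4 lay level with the highest of them. The fall after castration was 1.15, or 2.22-fold (SE 0.31, limma adjusted p = 0.046). It was lost without any 1 of 8 arrays, the 3 intact, the 3 castrated and regenerated replicates 2 and 3 (limma adjusted p 0.0553 to 0.172). The difference of 0.83 after testosterone did not pass (SE 0.29, limma adjusted p = 0.141), and without regenerated replicate 4 it was 1.09 and passed (limma adjusted p = 0.00919).

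Of the 8 assembly factors, 1 was called after castration (12.5%, against 8.01% of all genes and 17.2% of those above background). After testosterone 2 of the 8 were called (25%, against 4.98% and 10.9%). Ndufaf5, which hydroxylates a core subunit during assembly, was at 5.11, 5.57 and 5.47 in intact and 6.54, 6.71 and 6.59 in castrated cells, and at 5.89, 5.47, 5.42 and 4.86 in regenerated cells. Castrated arrays were above all others, and intact and regenerated arrays overlapped below background. It rose by 1.23 after castration, 2.34-fold (SE 0.23, limma adjusted p = 0.00984), and fell by 1.20 after testosterone, 2.3-fold (SE 0.22, limma adjusted p = 0.0108); without regenerated replicate 4 the fall was 1.02 (limma adjusted p = 0.00696). The first call was lost without intact replicate 1 (limma adjusted p = 0.0539) and the second was kept without each of the 10 arrays. Because only the castrated mean of 6.61 was above background, the fold change may be understated.

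Ndufaf7, a methyltransferase that modifies a core subunit, was at 8.04, 8.43 and 8.5 in intact, 9.34, 9.41 and 9.46 in castrated and 8.52, 7.85, 8.16 and 7.12 in regenerated cells. Here too every castrated array was above every other array. The difference of 1.08 after castration missed the threshold (SE 0.32, limma adjusted p = 0.0684) and passed without regenerated replicate 4 (limma adjusted p = 0.0122) or regenerated replicate 1 (limma adjusted p = 0.0471). Ndufaf7 fell by 1.49 after testosterone, 2.8-fold (SE 0.3, limma adjusted p = 0.0184), or by 1.22 without regenerated replicate 4 (limma adjusted p = 0.00932). That call was lost without castrated replicate 2 (0.0651), castrated replicate 3 (0.0623) or regenerated replicate 2 (0.0557).

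Over the 8 assembly factors 7 were higher in castrated than in intact cells (87.5%, against 58.5% of all genes), at a median of 0.51. After testosterone all 8 were lower at a median of -0.26, but without regenerated replicate 4 only 5 were lower, at -0.03. Of the 6 besides Ndufaf5 and Ndufaf7, not one was called. Those 6 differed after castration by -0.08 (Ndufaf2) to 0.59 (Ndufaf1). The 28 accessory subunits were split, 15 higher and 13 lower after castration, at a median of 0.02. Apart from Ndufa1 and Ndufv3, the subunits with the widest differences were Ndufb4b at 0.65 (SE 0.35, limma adjusted p = 0.34) and Ndufa6 at 0.52 (SE 0.21, limma adjusted p = 0.193). Ndufb4b passed without regenerated replicate 4 (limma adjusted p = 0.0401); it is a near copy of Ndufb4, and its signal cannot be assigned to one of them with certainty. Against intact cells, the widest differences of regenerated cells were Ndufb9 at -0.48 (limma adjusted p = 0.697) and Ndufa7 at 0.47 (limma adjusted p = 0.609). Without regenerated replicate 4 the difference of Ndufb9 shrank to -0.17 (limma adjusted p = 0.868). That of Ndufa7 widened to 0.67 (limma adjusted p = 0.324), followed by Ndufaf1 at 0.65 and Ndufaf4 at 0.64.

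**Figure D3:**
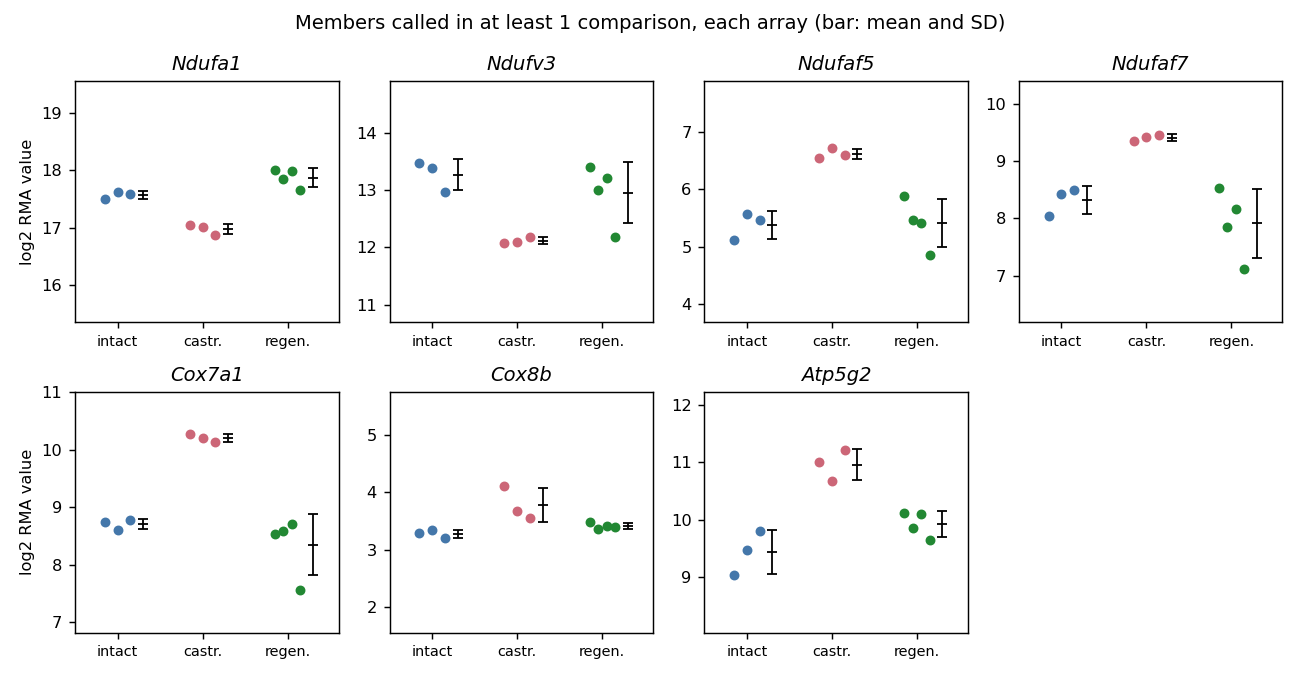
Level of the 7 called genes on each array (vertical axis, log2 RMA, each panel spanning the same range) in intact (n = 3), castrated (n = 3) and regenerated (n = 4) cells; the bar is the group's mean and SD. Castrated arrays lie above all others for Ndufaf5, Ndufaf7, Cox7a1, Cox8b and Atp5g2 and below all others for Ndufa1.

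Complex II, succinate dehydrogenase, is encoded wholly by nuclear genes: the catalytic subunits Sdha and Sdhb and the membrane anchors Sdhc and Sdhd. None of the 4 was called in any of the 3 comparisons. Sdha was at 9.57, 9.43 and 9.48 in intact and 9.49, 9.34 and 8.8 in castrated cells, and Sdhb at 10.89, 10.91 and 11.2 and at 11.52, 11.33 and 11.15. Both overlapped between these groups, with differences of -0.28 (SE 0.26) and 0.33 (SE 0.21). Sdhc was at 6.81, 7.13 and 7.35 in intact, 8, 7.43 and 7.74 in castrated and 7.55, 7.33, 7.63 and 6.83 in regenerated cells. Its castrated arrays were above the intact ones, by 0.62 on average, with a 95% interval of 0.06 to 1.18 (limma adjusted p = 0.19). Sdhd was at 7.62, 7.26 and 8.31 in intact, 8.35, 8.21 and 8.51 in castrated and 8.04, 7.87, 8 and 7.8 in regenerated cells. Intact replicate 3 overlapped the castrated arrays, the difference was 0.63 (95% interval 0.06 to 1.19, limma adjusted p = 0.188), and without that array it was 0.91 and passed (limma adjusted p = 0.032).

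Complex III, the cytochrome bc1 complex, had no called gene among 8 in any comparison. Its core subunits Uqcrc1, Uqcrc2 and Uqcrfs1, the last of them the iron-sulfur protein, were all lower after castration, by 0.58, 0.14 and 0.31 on the log2 scale, while 4 of 5 accessory subunits were higher or level. Uqcrc1 was at 13.01, 12.95 and 13.12 in intact, 13.08, 12.55 and 11.71 in castrated and 13.05, 13.04, 13.04 and 12.46 in regenerated cells. The castrated arrays spread over more than the gap to intact cells (SE 0.33, limma adjusted p = 0.374). Uqcr10, a small accessory subunit, had the widest difference upward, 0.53 (SE 0.26, limma adjusted p = 0.279).

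Complex IV, cytochrome c oxidase, contains several subunits that exist as paralogs made in different tissues. The 11 general subunits, here with Ndufa4, differed after castration by -0.44 (Cox4i1) to 0.22 (Cox6b1), and none was called. After castration 2 of the 9 tissue isoforms and paralogs were called (22.2%, against 8.01% of all genes and 17.2% of those above background). They were Cox7a1 and Cox8b, the latter under background on all arrays. After testosterone 1 of the 9, Cox7a1, was called (11.1%, against 4.98% and 10.9%). Cox7a1, the isoform of subunit 7a known from heart and skeletal muscle, was at 8.74, 8.6 and 8.77 in intact cells and at 10.27, 10.2 and 10.13 in castrated cells. In regenerated cells it was at 8.54, 8.59, 8.71 and 7.55. Castrated arrays stood more than 1 log2 unit above all others, and regenerated replicate 4 lay about as far below the rest. Cox7a1 rose by 1.49 after castration, 2.82-fold (SE 0.29, limma adjusted p = 0.0118), and fell by 1.85 after testosterone, 3.61-fold (SE 0.27, limma adjusted p = 0.00366). Without regenerated replicate 4 the fall was 1.58 (limma adjusted p = 0.000516). The first call was lost without intact replicate 2 (limma adjusted p = 0.0531), and the second was kept without each of the 10 arrays.

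The general isoform Cox7a2 was at 17.4 to 17.57 in intact, 17.58 to 17.65 in castrated and 17.11 to 17.56 in regenerated cells, a difference of 0.10 after castration (95% interval within 0.5 of 0). Cox7a2l, which links complexes III and IV, differed by 0.13 (SE 0.29). Cox8b, the muscle isoform of subunit 8, was at 3.29, 3.34 and 3.2 in intact, 4.11, 3.68 and 3.55 in castrated and 3.48, 3.36, 3.42 and 3.4 in regenerated cells. The castrated arrays were above the others, but all 10 arrays lay under background. The rise of 0.51 (SE 0.12, limma adjusted p = 0.0277) was lost without any 1 of the intact arrays (limma adjusted p 0.0683 to 0.0906), with only the castrated and intact arrays in the fit (0.0701) and with arrays centred on their median (0.107). Cox8a, the general isoform, was at 14.52 to 14.77 in intact and castrated cells.

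Striated muscle markers were read beside these isoforms. The sum of the 8 measured was 33.44 to 34.07 in intact, 34.3 to 35.41 in castrated and 33.21 to 34.35 in regenerated arrays, and all 8 were at or under background in all groups. Of the 8, 5 were higher and 3 lower after castration, at a median of 0.08. Acta1 missed the threshold after castration (0.44, limma adjusted p = 0.0848) and was called lower after testosterone (-0.57, limma adjusted p = 0.0315). The oxygen carrier Mb was at 4.66 to 4.91 in intact and 5.11 to 5.39 in castrated cells (difference 0.50, limma adjusted p = 0.0247, and up to 0.113 with an array left out). The sum of the 4 brown adipocyte markers was 14.15 to 14.78, 14.89 to 15.53 and 14.4 to 15.6 in the same groups, and Ucp1 rose by 0.61 under background (limma adjusted p = 0.0289, and up to 0.124 with an array left out). Cox7a1 stood above background in all groups, at a lowest value of 7.55.

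Cox8b was not called after testosterone, though it passed without castrated replicate 3 (-0.48, limma adjusted p = 0.0447). The other paralogs of complex IV were not called in any comparison with all 10 arrays; Cox6b2 passed after testosterone without regenerated replicate 1 (0.45, limma adjusted p = 0.0483). Cox4i2, Cox6a2, Cox6b2, Cox7b2, Cox8c and Ndufa4l2 had all 3 group means at or under background and lay between 2.95 and 5.18 on every array. Their general counterparts Cox4i1, Cox6a1, Cox6b1, Cox7b and Ndufa4 were above background in all groups. Cox4i1 was at 14.14, 14.27 and 14 in intact and 13.73, 13.77 and 13.58 in castrated cells. These arrays did not overlap, and the difference of -0.44 missed the threshold (SE 0.20, limma adjusted p = 0.245).

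**Figure D4:**
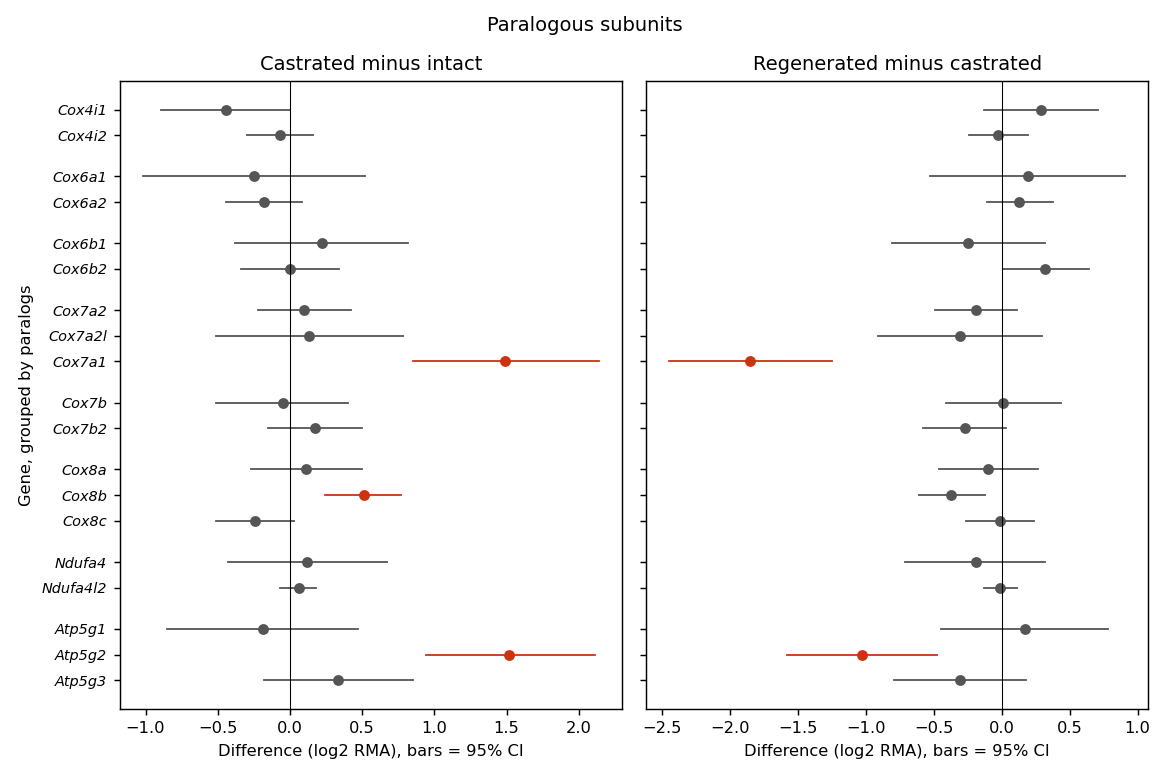
Difference (horizontal axis, log2 RMA) of paralogous subunits after castration (left) and after testosterone (right), with 95% intervals; red marks an adjusted p under 0.05. The intervals of Cox7a1 and Atp5g2 lie away from those of their paralogs, Cox7a2 and Cox7a2l and Atp5g1 and Atp5g3, in the left panel; that difference between paralogs was not tested.

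Complex V, the ATP synthase, turns a membrane ring of subunit c by proton flow and makes ATP in a catalytic head. The same mature subunit c is encoded by 3 genes, Atp5g1, Atp5g2 and Atp5g3, and only Atp5g2 was called among the 17 genes of the complex. It was at 9.03, 9.48 and 9.8 in intact cells and at 11, 10.67 and 11.21 in castrated cells. In regenerated cells it was at 10.12, 9.85, 10.1 and 9.64. Castrated arrays were above all others, and intact and regenerated arrays overlapped at 9.64 to 9.8. Atp5g2 rose by 1.52 after castration, 2.88-fold (SE 0.27, limma adjusted p = 0.00663), a call kept without each of the 10 arrays (highest adjusted p 0.0381). It fell by 1.03 after testosterone, 2.05-fold (SE 0.25, limma adjusted p = 0.0411). That second call was kept only without intact replicate 1 or 3, and was lost without any 1 of the other 8 arrays, intact replicate 2, the 3 castrated and the 4 regenerated (limma adjusted p 0.0512 to 0.129).

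The array identifier of the row used for Atp5g2 carries chromosome 7, whereas RefSeq places the gene on chromosome 15. A second row whose identifier carries chromosome 15 was at 8.61, 8.96 and 9.3 in intact and 10.54, 10.38 and 10.91 in castrated cells. In regenerated cells it was at 9.59, 9.37, 9.54 and 9.14. It rose by 1.65 after castration (limma adjusted p = 0.00321) and fell by 1.20 after testosterone (limma adjusted p = 0.0167). The same order of groups was therefore seen on both rows, which may share target sequence. Atp5g1 and Atp5g3 differed by -0.19 (SE 0.30) and 0.33 (SE 0.23) after castration and were not called.

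In the catalytic head, Atp5a1, the alpha subunit, was at 12.74, 12.62 and 12.6 in intact and 12.17, 11.95 and 12.01 in castrated cells. In regenerated cells it was at 12.31, 12.53, 12.61 and 11.81. The castrated arrays were below the intact ones, by 0.61 on average on the log2 scale (SE 0.24, limma adjusted p = 0.176), and without regenerated replicate 4 the call passed (limma adjusted p = 0.0478). Atp5b, the beta subunit, differed by -0.30 (SE 0.23, limma adjusted p = 0.546), and Atp5e, the epsilon subunit, by 0.60 (SE 0.29, limma adjusted p = 0.274). The 4 subunits of the peripheral stalk differed by -0.28 (Atp5pb) to 0.25 (Atp5h). The 6 other membrane subunits were all higher after castration, by 0.03 to 0.31, and all lower after testosterone, by 0.07 to 0.35 on the log2 scale, with none called; without regenerated replicate 4, 4 of the 6 were lower after testosterone. The row used for Atp5l carries chromosome 5 in its identifier, while RefSeq places the gene on chromosome 9. Atp5l, Atp5l2 and the pseudogene Atp5l-ps1 are near copies, and their values cannot be assigned to one locus with certainty.

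Genes of the pathway outside these names were read from lists. Of 5 subunits encoded in the mitochondrial genome (ND2, ND3, ND6, COX1 and COX2) none was called, with differences after castration of -0.84 for ND2 (SE 0.64, limma adjusted p = 0.531) to 0.82 for ND3 (SE 0.40, limma adjusted p = 0.292). COX1 reached 19.77, close to the highest value of the table, 19.93, so a change of it may be understated. Cytochrome c (Cycs), which carries electrons from complex III to IV, was at 15.43, 15.33 and 15.12 in intact, 14.28, 14.15 and 14.76 in castrated and 15.14, 15.31, 15.5 and 14.03 in regenerated cells. Castrated arrays were all below intact ones, by 0.90 on average on the log2 scale (SE 0.35), and the difference did not pass (limma adjusted p = 0.167). Without regenerated replicate 4 Cycs passed in both comparisons, at -0.90 after castration (limma adjusted p = 0.0159) and 0.92 after testosterone (limma adjusted p = 0.02). The identifier of that row carries chromosome 19, whereas RefSeq places Cycs on chromosome 6. A second row, with chromosome 6 in its identifier, was at 11.52, 11.51 and 11 in intact, 10.54, 10.28 and 10.87 in castrated and 11.23, 11.57, 11.88 and 10.34 in regenerated cells. Here too castrated arrays were below intact ones, by 0.78 on average on the log2 scale (SE 0.37, limma adjusted p = 0.274). Without regenerated replicate 4 the second row did not pass after castration (limma adjusted p = 0.0868) and passed after testosterone, at 1 on the log2 scale (limma adjusted p = 0.0455). Neither Cyc1 nor the testis form Cyct was called.

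A further list held 32 measured genes, assembly factors and Atpif1, which is not one. Of these, 2 rose after castration (6.25%, against 8.01% of all genes). None was called after testosterone, against 4.98% of all genes. Without regenerated replicate 4, Coa3, a complex IV assembly factor, passed after testosterone (1.03, limma adjusted p = 0.0236). Atpif1, the inhibitor of the ATP synthase, was at 7.28, 7.33 and 7.5 in intact, 8.37, 8.31 and 8.27 in castrated and 7.83, 7.87, 7.92 and 7.86 in regenerated cells. The 3 groups did not overlap. It rose by 0.95 after castration (SE 0.16, limma adjusted p = 0.00536), a call kept without each of the 10 arrays; the difference of -0.45 after testosterone did not pass (limma adjusted p = 0.127). Cox20, a factor for subunit 2 of complex IV, rose by 1.21 (SE 0.32, limma adjusted p = 0.0475), a call lost without any 1 of intact replicates 1 and 2, the 3 castrated arrays and regenerated replicates 2 and 3 (limma adjusted p 0.0672 to 0.183).

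Among 6 other dehydrogenases and electron carriers that feed ubiquinone, 2 rose after castration (33.3%, against 8.01% of all genes and 17.2% of those above background). After testosterone 1 of the 6 was called (16.7%, against 4.98% and 10.9%). Gpd2, the mitochondrial glycerol-3-phosphate dehydrogenase, was at 8.02, 8.35 and 8.06 in intact, 9.02, 9.73 and 8.98 in castrated and 7.9, 7.86, 8.42 and 7.83 in regenerated cells. Castrated arrays were above all others, with a rise of 1.10 (limma adjusted p = 0.0273) and a fall of 1.24 after testosterone (limma adjusted p = 0.0163). The rise was lost without any 1 of the intact arrays or castrated replicate 2 (limma adjusted p 0.0617 to 0.114), and the fall without castrated replicate 2 (0.0625) or regenerated replicate 2 (0.0547). Prodh, which oxidises proline, was at 7.23, 7.7 and 8.01 in intact, 10.73, 10.75 and 9.85 in castrated and 8.76, 9.44, 9.24 and 11.68 in regenerated cells. It rose by 2.80 after castration (SE 0.64, limma adjusted p = 0.0234), a call lost without any 1 of intact replicates 1 and 2 and castrated replicates 1 and 2 (limma adjusted p 0.0712 to 0.101). Regenerated replicate 4 held its highest value of all arrays, and the difference of -0.66 after testosterone did not pass (limma adjusted p = 0.621); without that array it was -1.29 and passed (limma adjusted p = 0.039).

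None of 13 regulators of mitochondrial gene expression was called in any comparison. Ppargc1a, the coactivator PGC-1 alpha, was at 10.14, 10.38 and 8.68 in intact, 9.27, 10.94 and 9.8 in castrated and 8.58, 8.58, 8.31 and 7.58 in regenerated cells. Regenerated arrays were all below the others; the difference of -1.74 from castrated cells missed the threshold (SE 0.49, limma adjusted p = 0.0731) and passed without intact replicate 3 (limma adjusted p = 0.0414). Differences after castration were 0.57 for Tfam (SE 0.23), 0.92 for Tfb1m (SE 0.34), -0.58 for Tfb2m (SE 0.22), 0.39 for Myc (SE 0.31), 0.32 for Nrf1 (SE 0.17) and 0.24 for Ppargc1b (SE 0.12). Gabpa, Gabpb1, Yy1, Esrrg, Pprc1 and Polrmt differed by -0.21 to 0.15. None of 10 carriers and outer membrane genes was called; the widest difference after castration among them was 0.65, for Slc25a4 (limma adjusted p = 0.103).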

How the data were processed

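RNA of 10 samples was measured on 1 array each. The authors deposited log2 values; the submitters' processing notes name RMA and Affymetrix Expression Console, and per the labels the chip is a whole-transcript array. Software versions and a genome build are not given in the sources used here. Rows were named through GEO's platform annotation, and 827 row symbols were updated through RefSeq (GRCm38.p6). Where a gene had several rows (355 genes), the row with the highest mean over the 10 arrays was used. The model for all 30142 genes used limma 3.58.1 under R 4.3.3 (lmFit, eBayes with trend, 3 groups, 7 residual degrees of freedom, two-sided, Benjamini-Hochberg adjustment, threshold 0.05). No filter was set on dim rows. For arrays the number of samples limits the precision. The fit was tested on simulated data.

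The gene names, lists and motifs were chosen with earlier results of these data known. Among them, genes are named where called in a comparison, with the 2 widest differences per complex and comparison, as paralogs or Sdh genes, and from each list the called genes, or the widest difference where none was called, and all regulators. Ndufb4b, Ndufa6, Cox6b1, Cd3e, Cd68, Itgam, Krt14, Krt15, Krt17, Itga6, Dcn, Mb, Acta1 and Ucp1 were chosen after their values were seen. So were the members given as ends of a range and other single values outside that rule. Samples of the same number were not treated as pairs. Alternatives were no trend, 2 groups only, array weights, median centring, a background filter, the mean of rows, a replicate block, leaving out each array, a threshold with a difference of at least 0.5, and, chosen after seeing the data, gene names by updated symbol the second rows of Atp5g2 and Cycs, and shares of genes without regenerated replicate 4.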

Additional observations from a re-analysis of the deposited data

Results flagged for a closer look

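Of 38 groups of 4 arrays examined, 5 had a value far from the other 3 by Dixon's ratio, where chance gives about 1 in 20. All 5 were regenerated replicate 4. Cox6b1 was at 13.33 there, and at 14.23 to 14.35 on the other regenerated arrays. Cox7a1 was at 7.55, against 8.54 to 8.71, Cox7a2l at 10.06, against 10.89 to 11.04, and Uqcrc1 at 12.46, against 13.04 to 13.05. The median level over the 20 complex IV genes was 9 against 9.74 to 9.87. It is set by the middle genes, which were Cox7a1 and Cox7a2l on the other regenerated arrays. On replicate 4 they were Cox7c and Cox7a2l, so this flag is not separate from those of Cox7a1 and Cox7a2l.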

How the results depend on the processing

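The number of oxidative phosphorylation genes called after castration was 6, and 2 to 9 when each array was left out in turn; it was 2 without intact replicate 1 and 2 without intact replicate 2. After testosterone it was 5, and 3 to 5 with an array left out; it was 3 without castrated replicate 2, 3 without regenerated replicate 2, and 3 when only the castrated and regenerated arrays were fitted. Leaving arrays out lowers the number of samples; the cause of the smaller count with 2 groups was not tested. Against intact cells the count was 0 in every setting run. With the replicate block the counts were 8, 5 and 0 and the medians 0.11, 0.05 and 0.15; regenerated replicate 4 is alone in its block and adds nothing to that fit. Same-numbered samples did not deviate together throughout (r of -0.16 to 0.26 over 9 pairs, over 0.1 in 3). Under the block Ndufaf7 passed after castration (limma adjusted p = 0.0343), Ndufv3 passed after testosterone (0.0278) and Atp5g2 no longer did (0.0671). Centring each array on its median moved the median of all genes after castration from 0.04 to -0.06 and that of the oxidative phosphorylation genes from 0.11 to 0.01. Over all genes tested, the number called after castration was 2414 and ran from 1019 without intact replicate 1 to 4258 with array weights; after testosterone it was 1500 and ran from 816 without castrated replicate 2 to 2236 with array weights; against intact cells it was 11 and ran from 0 to 78, the latter without regenerated replicate 1. Of 1863 values of 33 named genes under the alternatives, 35 fell short of the threshold, 14 newly passed it and no called value changed sign; 68 uncalled values changed sign.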

Other observations

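4 genes carry names of this kind only after their symbols were updated: Ndufaf8, Ndufa11b, Ndufb4c and Uqcrh-ps1. None of them was called. Ndufaf8, a complex I assembly factor, was at 9.51, 10.21 and 10.32 in intact, 11.17, 11.25 and 10.8 in castrated and 10.73, 10.22, 10.78 and 9.94 in regenerated cells. Castrated arrays were above all others, and the difference of 1.06 after castration missed the threshold (SE 0.31, limma adjusted p = 0.0663).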
